A study of Mus musculus with 12 samples.

Results

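The 10 genes described here are receptors and markers by which resting, or homeostatic, microglia of the mouse brain are recognised: P2ry12, P2ry13, P2ry6, Cx3cr1, Tmem119, Gpr34, Sall1, Siglech, Fcrls and Selplg. They were chosen by name, by a rule that uses no measured value but was written with earlier results of these data known, and their rows were found in the count table through the gene symbols of the identifiers. All 10 were found among 56980 identifiers, and all 10 were among the 19152 genes with enough counts to test. Hippocampal RNA was sequenced from 12 male mice, each with a library of its own, in 4 groups of 3. Trem2-KO mice carried the AppNL-G-F knock-in and a Trem2 knockout and were 9 or 3 months old. App-KI mice carried the AppNL-G-F knock-in alone and were also 9 or 3 months old. The knock-in puts a humanised amyloid-β sequence with disease mutations into the mouse App gene, so that amyloid plaques form without overexpression of the precursor. All 4 groups carried it, and no group without it is analysed here, so age and amyloid deposition cannot be told apart. The labels do not say which part of Trem2 was removed, nor which cells the knockout covers.

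Microglia are the resident macrophages of the brain. In the resting state they scan the tissue with fine processes, and surface receptors for nucleotides, chemokines and lipids steer these movements. Near amyloid plaques, microglia pass into a state in which many of the resting genes are turned down and genes of phagocytosis and lipid handling are turned up. Trem2 is a lipid-sensing microglial receptor that signals through the adaptor Tyrobp and is needed for much of that response. How the resting genes stand in hippocampal RNA with and without Trem2, at an early and a later stage of deposition, is the question that the 4 groups address.

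The genes fall into several roles. P2ry12 and P2ry13 are receptors for ADP, and P2ry12 directs microglial processes towards nucleotides released by damaged cells. P2ry6 is a receptor for UDP that triggers phagocytosis. Cx3cr1 is the receptor for the neuronal chemokine fractalkine, and Gpr34 is a receptor for lysophosphatidylserine. Siglech is a sialic acid-binding lectin that signals through Tyrobp, Fcrls is an Fc receptor-like scavenger receptor, and Selplg is the glycoprotein ligand of P-selectin. Tmem119 is a membrane protein used as a microglial marker. Sall1 is a zinc-finger transcription factor that maintains the resting state in mouse microglia.

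RefSeq promoter windows on the build GRCm38.p6 were matched for 6 of the 10 genes (P2ry12, P2ry13, Cx3cr1, Sall1, Siglech and Fcrls). The 250 bases upstream of the annotated start are shown for the neighbouring ADP receptor genes P2ry12 and P2ry13, and for Fcrls, the gene of the 10 with the largest rise with age in hippocampal RNA in both genotypes. They lie at chr3:59262986-59263235, chr3:59210883-59211132 and chr3:87263525-87263774, all on the minus strand, and are written 5′ to 3′ on that strand. Capitals mark the motifs that were searched for on both strands: the ETS core of PU.1 sites GAGGAA, the SMAD box CAGACA, the MEF2 core AAAATAG and the E-box CACGTG.
P2ry12: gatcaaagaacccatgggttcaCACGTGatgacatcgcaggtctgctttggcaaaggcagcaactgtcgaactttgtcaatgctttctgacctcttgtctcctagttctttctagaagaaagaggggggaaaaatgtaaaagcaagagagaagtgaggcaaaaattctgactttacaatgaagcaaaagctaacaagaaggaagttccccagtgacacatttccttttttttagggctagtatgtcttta
P2ry13: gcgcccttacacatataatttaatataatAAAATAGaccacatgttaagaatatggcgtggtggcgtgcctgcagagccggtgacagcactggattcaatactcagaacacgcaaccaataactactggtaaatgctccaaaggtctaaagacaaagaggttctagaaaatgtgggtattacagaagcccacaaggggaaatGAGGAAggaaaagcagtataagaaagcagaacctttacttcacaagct
Fcrls: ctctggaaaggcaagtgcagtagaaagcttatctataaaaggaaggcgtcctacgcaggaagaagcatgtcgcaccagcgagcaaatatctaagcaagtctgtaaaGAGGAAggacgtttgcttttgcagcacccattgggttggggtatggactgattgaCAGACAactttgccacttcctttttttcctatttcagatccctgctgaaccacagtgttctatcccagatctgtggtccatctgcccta
The P2ry12 window held the E-box, with its first base at -228 from the start. The P2ry13 window held the ETS core at -48 and the MEF2 core at -221, and the Fcrls window held the ETS core at -144 and the SMAD box at -89. No marked motif overlapped another. The 6 genes had 8 windows, and the search also covered a short stretch after each start that is not shown. The ETS core was present in 3 of these 8, against 28.3% of the 32851 windows of the table. The SMAD box was present in 2 of the 8, against 21.0%. The MEF2 core was present in 1 of the 8, against 4.22% of windows, and the E-box in 2, against 7.15%. These matches describe letters in the windows and do not show that a factor binds there.

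Trem2 itself was lower in the Trem2-KO libraries than in the App-KI libraries of the same age. At 9 months it stood at 3.62, 3.83 and 3.76 CPM (counts relative to the scaled library size) in Trem2-KO mice, against 55.6, 52.6 and 49.8 CPM in App-KI mice. At 3 months it stood at 1.85, 1.93 and 2.17 CPM in Trem2-KO mice, against 10.4, 8.05 and 9.17 CPM in App-KI mice. Total counts ran from 14627892 to 24594655 per library, and 3 counts, the limit that a count of 0 allows, corresponded to 0.122 to 0.205 CPM. The 13 hippocampal neuron markers were all well detected, with a mean log2 CPM between 8.07 and 8.30 in every library. Trem2-KO 9-month replicate 1 was the lowest of its group for 8 of the 10 genes, and calls that changed without any 1 library are given beside the results. Blood cells can also express Selplg and Cx3cr1, and platelets P2ry12. Of 14 monocyte and lymphocyte markers, 12 had too few counts to test and none of these passed 0.53 CPM in any library, and of 7 platelet markers 5 had too few, none of them above 0.40 CPM. The others were Flt3, at 9.09 to 11.7 CPM, Ccr2, at 0.132 to 1.59 CPM, and the platelet markers Itga2b, at 1.18 to 2.91 CPM, and Pf4, at 0.262 to 0.794 CPM. At 9 months the mean log2 CPM of Itga2b and Pf4 was 0.307 to 0.662 in Trem2-KO mice, against -0.507 to 0.144 in App-KI mice. At 3 months it was -0.236 to 0.115 and -0.241 to -0.0782.

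Relative to all hippocampal RNA, the nucleotide receptors stood higher at 9 than at 3 months in App-KI mice, and lower in Trem2-KO than in App-KI mice at 9 months. Relative to other microglial genes, which changed more, both differences had the opposite sign, as described further on. P2ry12 stood at 71.0, 82.9 and 88.9 CPM in Trem2-KO mice at 9 months, against 93.8, 98.5 and 108 CPM in App-KI mice of that age. At 3 months it stood at 71.1, 67.4 and 65.7 CPM in Trem2-KO mice, against 64.8, 64.9 and 67 CPM in App-KI mice. The genotypes did not overlap at 9 months and overlapped at 3 months, and the lowest Trem2-KO library of 9 months lay among those of 3 months. P2ry13 followed at lower levels, with 17.4, 20.3 and 21.3 CPM in Trem2-KO mice at 9 months, against 25.5, 29.3 and 30.0 CPM in App-KI mice. Its values at 3 months were 17.8, 14.7 and 14.7 CPM in Trem2-KO mice, against 15, 17.9 and 17.9 CPM in App-KI mice, so that the Trem2-KO ages overlapped by 1 library of each. P2ry6, the UDP receptor, was the scarcest of the 10 genes, with 5.03, 4.70 and 5.09 CPM in Trem2-KO mice at 9 months, against 6.54, 6.54 and 7.09 CPM in App-KI mice. At 3 months it had 3.56, 2.90 and 3.57 CPM in Trem2-KO mice, against 3.55, 3.6 and 4.63 CPM in App-KI mice, so that the genotypes overlapped only at the edges of their ranges.

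Cx3cr1 and Gpr34, the receptors for fractalkine and for lysophosphatidylserine, were among the genes that separated the genotypes most widely at 9 months. Cx3cr1 had 31.6, 33.6 and 37.4 CPM in Trem2-KO mice at 9 months, against 55.1, 54.2 and 57.1 CPM in App-KI mice. At 3 months it had 32.1, 30.3 and 30.8 CPM in Trem2-KO mice, against 34.4, 34.2 and 33.0 CPM in App-KI mice. The 9-month Trem2-KO values thus lay in and just above the range of both 3-month groups, far from the App-KI values of the same age. Gpr34 had 25.5, 32.7 and 31.4 CPM in Trem2-KO mice at 9 months, against 44.2, 45.3 and 50.8 CPM in App-KI mice. At 3 months it had 20.7, 22.7 and 19.7 CPM in Trem2-KO mice, against 22.3, 23.0 and 21.8 CPM in App-KI mice. Its 9-month Trem2-KO libraries stood between the 3-month libraries and the App-KI libraries of 9 months.

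Siglech, Fcrls and Selplg, the lectin, the scavenger receptor and the selectin ligand, had the highest 9-month levels of the 10 relative to 3 months in App-KI mice, together with Gpr34. Siglech stood at 27.7, 28.4 and 27.5 CPM in Trem2-KO mice at 9 months, against 35.1, 42.0 and 40.8 CPM in App-KI mice. In the 3-month libraries it stood at 17.9, 18.8 and 19.5 CPM in Trem2-KO mice, against 16.8, 17.5 and 20.2 CPM in App-KI mice. The genotypes overlapped at the younger age and separated at the older one. Fcrls stood at 45.9, 46.3 and 52.8 CPM in Trem2-KO mice at 9 months, against 71.4, 71.2 and 73.4 CPM in App-KI mice. In the 3-month libraries it stood at 27.6, 26.3 and 27.6 CPM in Trem2-KO mice, against 31.7, 30.1 and 30.2 CPM in App-KI mice, so that Trem2-KO was below App-KI at both ages. The 3-month difference of Fcrls was not called (edgeR adjusted p = 0.306). Selplg stood at 42.5, 47.9 and 49.0 CPM in Trem2-KO mice at 9 months, against 71.1, 76.5 and 76.6 CPM in App-KI mice. Its 3-month values were 29.9, 34.6 and 34.5 CPM in Trem2-KO mice, against 34, 38.3 and 38.6 CPM in App-KI mice, where the genotypes overlapped.

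Tmem119 and Sall1, the membrane marker and the transcription factor, differed least between the genotypes at 9 months. Tmem119 had 40.9, 42.1 and 46.1 CPM in Trem2-KO mice at 9 months, against 49.3, 49.4 and 47.9 CPM in App-KI mice. Its values at 3 months were 30.2, 29.2 and 31.0 CPM in Trem2-KO mice, against 35.8, 36.6 and 34.1 CPM in App-KI mice. The genotypes thus did not overlap at either age, as held for 8.94% of all tested genes at 3 months and 9.04% at 9 months in this direction. The difference was not called at 3 months (edgeR adjusted p = 0.121) or at 9 months (0.185). Sall1 had 20.9, 25.7 and 24 CPM in Trem2-KO mice at 9 months, against 26.7, 29.4 and 30.4 CPM in App-KI mice. Its values at 3 months were 17.9, 17.2 and 17.6 CPM in Trem2-KO mice, against 15.9, 20.4 and 17.9 CPM in App-KI mice, with the Trem2-KO range inside that of App-KI.

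**Figure D1:**
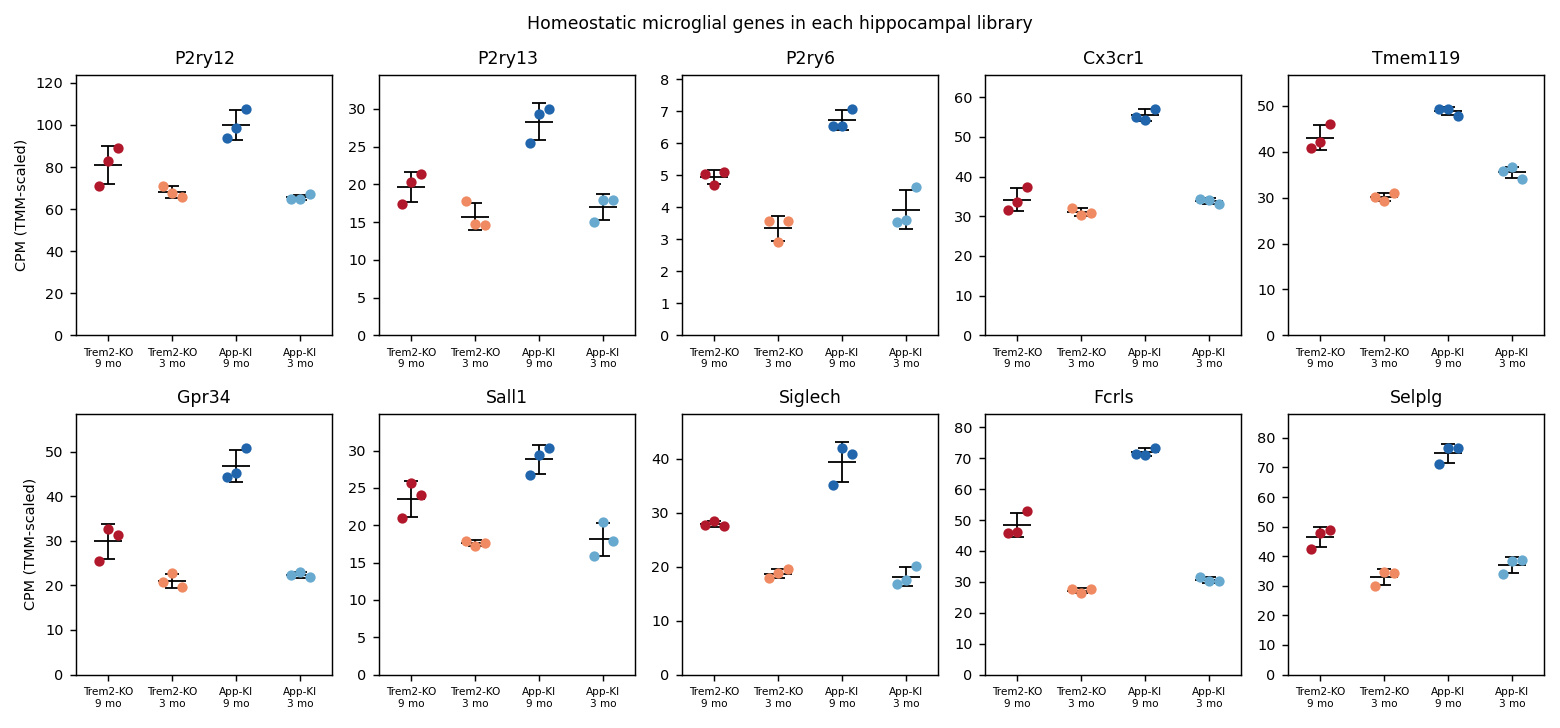
Level of each of the 10 genes in every library, in CPM on scaled library sizes, with 1 panel per gene and an axis from 0. Points are libraries, and bars are group means with SD (n = 3). In every panel the 3 App-KI libraries of 9 months lie above the 3 Trem2-KO libraries of that age, as for 9.04% of all tested genes. At 3 months the genotypes overlap for 7 of the 10. For the others Trem2-KO lies below App-KI, as for 8.94% of all tested genes. Scaling to other microglial genes shifts all genes alike and gives these 9-month differences the opposite sign. On that scale 7 of the 10 were called higher, against 83.7% of all tested genes.

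Divided by annotated exon length, so that genes can be compared, P2ry12 had the highest level of the 10 in every group and P2ry6 the lowest. The level of P2ry12 was 31.8 ± 3.58 CPM per kilobase in Trem2-KO mice at 9 months and 26.7 ± 1.07 in Trem2-KO mice at 3 months, against 39.3 ± 2.80 and 25.7 ± 0.485 in App-KI mice at 9 and 3 months (SD, n = 3 each). The level of P2ry6 was 1.71 ± 0.0737 CPM per kilobase in Trem2-KO mice at 9 months, against 2.33 ± 0.109 in App-KI mice. Fcrls and Tmem119 exchanged places with age. At 9 months Fcrls was second in both genotypes, at 20.7 ± 1.66 CPM per kilobase in Trem2-KO mice and 30.8 ± 0.527 in App-KI mice. At 3 months Tmem119 was second in both, at 13 ± 0.379 CPM per kilobase in Trem2-KO mice and 15.3 ± 0.553 in App-KI mice, with Fcrls next at 11.6 ± 0.312 and 13.1 ± 0.383. In Trem2-KO mice at 9 months the libraries of Fcrls and of the next gene, Tmem119, overlapped. Siglech, P2ry13 and Cx3cr1 overlapped each other there. In App-KI mice at 9 months, Gpr34 overlapped Tmem119, Cx3cr1 overlapped Siglech, and Siglech overlapped P2ry13. In the 3-month groups Selplg, Cx3cr1 and P2ry13 overlapped each other in Trem2-KO mice, and P2ry13 overlapped Siglech in App-KI mice. Selplg kept the fifth place in every group, ahead of Cx3cr1, Siglech and P2ry13, and Sall1 the ninth.

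At 9 months all 10 genes were lower in Trem2-KO than in App-KI mice relative to all hippocampal RNA, and 7 of them passed the test. Relative to other microglial genes 7 of the 10 were called higher, below the 83.7% of all tested genes called higher on that scale. The test was edgeR's quasi-likelihood test on all 12 libraries with Benjamini-Hochberg adjustment over all 19152 genes, and the threshold for a call was an adjusted p of 0.05. Cx3cr1 had the largest log2 fold change, -0.70 ± 0.069 (SE; edgeR adjusted p = 1.74e-06), a level 0.616 times that of App-KI mice. Selplg (-0.69 ± 0.074, edgeR adjusted p = 6.01e-06) and Gpr34 (-0.65 ± 0.090, adjusted p = 1.7e-04) were close to it. Fcrls changed by -0.58 ± 0.065, P2ry13 by -0.52 ± 0.106, Siglech by -0.50 ± 0.086 and P2ry12 by -0.31 ± 0.071 on the log2 scale. Their edgeR adjusted p-values were 9.92e-06, 0.00953, 0.00204 and 0.024. The 3 others had log2 fold changes of -0.44 ± 0.150 for P2ry6, -0.29 ± 0.098 for Sall1 and -0.18 ± 0.065 for Tmem119, with edgeR adjusted p-values of 0.155, 0.152 and 0.185. Of all tested genes, 1.39% were called lower in this comparison. All 10 genes had every Trem2-KO library below every App-KI library, which held for 9.04% of all tested genes. The median log2 fold change of the 10 genes was -0.51, against 0.01 over all tested genes. In bulk tissue, fewer microglia and less RNA of a gene per microglial cell cannot be told apart. P2ry12 was no longer called without App-KI 9-month replicate 2 (adjusted p = 0.0506), App-KI 9-month replicate 3 (0.162) or Trem2-KO 9-month replicate 1 (0.13), nor P2ry13 without App-KI 9-month replicate 3 (0.0738) or Trem2-KO 9-month replicate 1 (0.0599). The P2ry12 call was also lost when only the 6 libraries compared entered the fit (adjusted p = 0.115).

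Markers of border macrophages, the macrophages of meninges and vessels, were not lower in Trem2-KO mice at 9 months. Their summed level was 44.8 to 58.9 CPM in the Trem2-KO libraries of 9 months, against 27.4 to 40.6 CPM in the App-KI libraries of that age. In the 3-month libraries it was 22 to 27.3 CPM in Trem2-KO mice, against 28.5 to 41.1 CPM in App-KI mice. Of the 12 markers 11 could be tested, all 11 had a positive log2 fold change at 9 months, and 1 was called higher, the lectin Clec10a (1.94 ± 0.508, edgeR adjusted p = 0.0454). The exception to testing was Folr2, which had no count in 1 library. The scavenger receptor Cd163 changed by 0.91 ± 0.249 and the mannose receptor Mrc1 by 0.86 ± 0.239, neither of them called. The 14 markers of meningeal and perivascular fibroblasts summed to 411 to 595 CPM in the Trem2-KO libraries of 9 months, against 269 to 329 CPM in the App-KI libraries of that age, and 2 of them, Slc6a20a and Aebp1, were called higher. The 14 markers of choroid plexus and ependyma set 1 library apart in each genotype at 9 months, with sums of 3225, 2565 and 94.1 CPM in Trem2-KO mice, against 1286, 66.4 and 1362 CPM in App-KI mice. The monocyte receptor Ccr2, at most 1.59 CPM in any library, had a log2 fold change of 1.70 at 9 months and was not called. The part of border tissue and blood cells in the levels of the 10 genes was not tested.

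At 3 months edgeR's quasi-likelihood test called none of the 10 genes between Trem2-KO and App-KI mice. Of all tested genes, 0.423% were called lower. Tmem119 and Fcrls had an unadjusted p under 0.05, at log2 fold changes of -0.24 ± 0.067 (edgeR adjusted p = 0.121) and -0.18 ± 0.069 (adjusted p = 0.306). None of the 10 was called by DESeq2 or with any single library left out. Cx3cr1, Tmem119 and Fcrls had every Trem2-KO library below every App-KI library, which held for 8.94% of tested genes. The intervals at this age set bounds on what could have been missed. The log2 fold change of P2ry12 was 0.05 with a 95% interval of -0.10 to 0.20, and that of P2ry6 was -0.24 with an interval of -0.57 to 0.10. The median of the 10 genes was -0.12, against 0.00 over all tested genes.

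With age, all 10 genes rose in App-KI mice relative to all hippocampal RNA. Relative to other microglial genes all 10 were called lower, as were 94.2% of all tested genes. On the scale of hippocampal RNA each was called higher in the older mice (edgeR's quasi-likelihood test). Fcrls led with a log2 fold change of 1.23 ± 0.066 (edgeR adjusted p = 4.2e-11), a level 2.34 times that at 3 months. Siglech rose by 1.11 ± 0.088, Gpr34 by 1.06 ± 0.091 and Selplg by 1.02 ± 0.075 on the log2 scale. A second set rose less, with 0.77 ± 0.153 for P2ry6, 0.74 ± 0.107 for P2ry13, 0.71 ± 0.069 for Cx3cr1, 0.67 ± 0.099 for Sall1 and 0.61 ± 0.071 for P2ry12. Tmem119 rose least, by 0.46 ± 0.066, with an edgeR adjusted p of 8.4e-05. The P2ry6 call had the highest edgeR adjusted p of the 10, 0.00259. Of all tested genes, 3.95% were called higher with age in App-KI mice. Every 9-month library lay above every 3-month library for all 10 genes, against 11.2% of tested genes. The median of the 10 genes was 0.76, against 0.00 over all tested genes.

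In Trem2-KO mice 8 of the 10 genes rose with age relative to all hippocampal RNA. Relative to other microglial genes 7 of the 10 were called lower, against 77.5% of all tested genes. On the scale of hippocampal RNA 9 of the 10 log2 fold changes were smaller than those in App-KI mice. Fcrls again led, with a log2 fold change of 0.83 ± 0.067 (edgeR adjusted p = 9.07e-08), followed by Siglech with 0.57 ± 0.088 (adjusted p = 3.64e-04). Tmem119 rose by 0.52 ± 0.067 (edgeR adjusted p = 5.9e-05), Gpr34 by 0.50 ± 0.093 (0.0017), Selplg by 0.49 ± 0.076 (4.04e-04) and Sall1 by 0.42 ± 0.100 (0.0113). P2ry6 rose by 0.57 ± 0.158 and P2ry12 by 0.25 ± 0.071, at edgeR adjusted p-values of 0.0285 and 0.0332. The fractalkine receptor Cx3cr1 had a change of 0.14 ± 0.070 (edgeR adjusted p = 0.25), and P2ry13 one of 0.33 ± 0.109 (adjusted p = 0.0681). Of all tested genes, 5.68% were called higher with age in Trem2-KO mice. For 7 of the 10 genes every 9-month library lay above every 3-month library, against 13.5% of tested genes, and the median of the 10 was 0.50, against 0.00 over all tested genes. The P2ry6 call was lost without Trem2-KO 3-month replicate 2 (adjusted p = 0.135) or 3 (0.0652), or 9-month replicate 1 (0.0633), 2 (0.055) or 3 (0.0584). The P2ry12 call was lost without Trem2-KO 3-month replicate 2 (adjusted p = 0.102) or 3 (0.146), or 9-month replicate 2 (0.115) or 3 (0.147). Both were also lost when only the 6 libraries compared entered the fit (adjusted p = 0.0632 and 0.081). Without Trem2-KO 9-month replicate 2, 5 genes were called in place of 8, the Sall1 call being lost too (adjusted p = 0.0659). P2ry13 was called without Trem2-KO 3-month replicate 1 (adjusted p = 0.0386) or 9-month replicate 1 (0.0247).

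**Figure D2:**
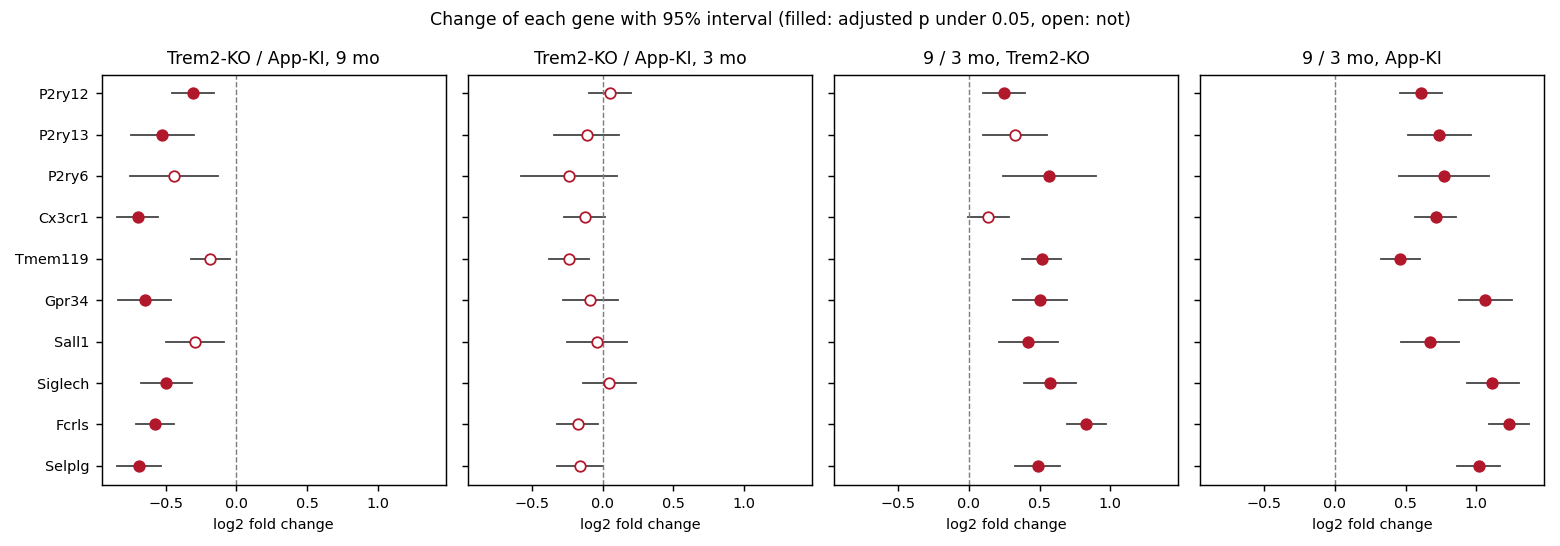
Log2 fold change of each gene with its 95% interval, for Trem2-KO over App-KI mice at 9 and at 3 months and for 9 over 3 months in Trem2-KO and in App-KI mice. Changes are relative to all hippocampal RNA. Scaling to other microglial genes shifts all genes alike. Most of the 10 then take the opposite sign between the genotypes at 9 months and between the ages. For the genotypes at 3 months, most of the 10 keep their sign. Filled points have an adjusted p under 0.05 by edgeR's quasi-likelihood test. Between the genotypes 7 points are filled at 9 months and 0 at 3 months, against 1.39% and 0.423% of all tested genes called lower. Between the ages 8 are filled in Trem2-KO mice and 10 in App-KI mice, against 5.68% and 3.95% of tested genes called higher.

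Whether the change with age differed between the genotypes was tested by the interaction, the change from 3 to 9 months in Trem2-KO mice minus that in App-KI mice. It was called for 2 genes, both with a smaller rise in Trem2-KO mice. Cx3cr1 changed by 0.14 in Trem2-KO mice and 0.71 in App-KI mice, an interaction of -0.57 ± 0.098 on the log2 scale (edgeR adjusted p = 0.00807). Selplg changed by 0.49 in Trem2-KO mice and 1.02 in App-KI mice, an interaction of -0.53 ± 0.107 (edgeR adjusted p = 0.0323). Gpr34 and Siglech had interactions of similar size that were not called, -0.56 ± 0.130 (edgeR adjusted p = 0.0956) and -0.54 ± 0.124 (adjusted p = 0.09). In all, 7 of the 10 had an unadjusted p under 0.05. Tmem119 stood at the other end, with a change of 0.52 in Trem2-KO mice, 0.46 in App-KI mice and an interaction of 0.05 ± 0.094, whose 95% interval ran from -0.14 to 0.25. The call for Cx3cr1 was made without each of the 12 libraries in turn. That for Selplg was lost without App-KI 3-month replicate 1 (adjusted p = 0.116) or 2 (0.0566), App-KI 9-month replicate 2 (0.0993) or 3 (0.107), Trem2-KO 3-month replicate 2 (0.142) or 3 (0.161), or Trem2-KO 9-month replicate 1 (0.104). Siglech was called without App-KI 3-month replicate 3 (adjusted p = 0.0367) or 9-month replicate 1 (0.0428), Gpr34 without Trem2-KO 9-month replicate 2 (0.0344) and Fcrls without Trem2-KO 9-month replicate 3 (0.0323). Without the filter on low counts, and by DESeq2, 5 of the 10 were called in place of 2. Of all tested genes, 0.209% were called with a negative interaction in the main test. The shares of all genes called in the other fits are not reported here, so the 5 cannot be set against them.

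The other microglial genes measured in the same libraries changed, as a group, by more than most of the 10 did. An index was formed from 22 microglial genes outside the 10, such as the colony-stimulating factor receptor Csf1r, the complement gene C1qc, the transcription factors Spi1 and Irf8 and the integrin Itgam. Its genes did not all change alike. Over all libraries Mpeg1 ran from 6.84 to 58.6 CPM and Aif1 from 3.66 to 6.33 CPM, against 26.3 to 73.4 CPM for Fcrls among the 10. The index was 0.578 times as high in Trem2-KO as in App-KI mice at 9 months, and at 3 months 0.919 times. From 3 to 9 months it rose 1.66-fold in Trem2-KO mice and 2.65-fold in App-KI mice. Each library was then scaled to this index in place of all genes, which gives the level of a gene per pan-microglial transcript. That is a ratio to the other microglial genes and not a level per cell. On this scale most genes of the hippocampus move against the index, so the median of all tested genes was 0.80 between the genotypes at 9 months, -0.73 between the ages in Trem2-KO mice and -1.40 between the ages in App-KI mice. Large shares of all genes are therefore called, and a call says only that a gene did not move with the index.

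Because this scaling shifts all genes alike, a gene that changed less than the index takes the opposite sign, and the sign on this scale is no separate result. From 3 to 9 months in App-KI mice, all 10 were called lower by edgeR's quasi-likelihood test, as were 94.2% of all tested genes. The fall was largest for Tmem119, at -0.94 ± 0.072 on the log2 scale, followed by P2ry12 at -0.80 ± 0.073, Sall1 at -0.73 ± 0.102 and Cx3cr1 at -0.69 ± 0.076. Fcrls fell least, at -0.18 ± 0.073, and kept closest to the index. A shorter index of 12 genes held no complement, cathepsin or Fc-adaptor gene. The Fcrls call was lost with the shorter index (edgeR adjusted p = 0.623). It was also lost without App-KI 3-month replicate 1 (0.0991) or 2 (0.0504) or 9-month replicate 2 (0.0923). The Siglech call was lost with the shorter index (edgeR adjusted p = 0.108). The median of the 10 was -0.65, between the index at 0 and all tested genes at -1.40.

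In Trem2-KO mice 7 of the 10 were called lower with age per pan-microglial transcript, as were 77.5% of all tested genes. Cx3cr1 fell most, at -0.60 ± 0.077, with P2ry12 at -0.49 ± 0.073 and P2ry13 at -0.41 ± 0.112. P2ry6, Siglech and Fcrls were not called, at -0.16 ± 0.162, -0.16 ± 0.086 and 0.10 ± 0.074. The median of the 10 was -0.24, against -0.73 over all tested genes. With the shorter index, 4 genes were called in place of 7, with 3 lower (Cx3cr1, P2ry12 and P2ry13) and Fcrls higher, at 0.19. The Gpr34 call was lost without Trem2-KO 3-month replicate 1 (adjusted p = 0.063) or 2 (0.15) or 9-month replicate 1 (0.186).

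Between the genotypes at 9 months, 7 of the 10 were called higher in Trem2-KO than in App-KI mice per pan-microglial transcript, as were 83.7% of all tested genes. Tmem119 stood 0.61 ± 0.071 higher on the log2 scale, Sall1 0.50 ± 0.100 and P2ry12 0.49 ± 0.072. Not called were Cx3cr1 at 0.09 ± 0.075, Selplg at 0.11 ± 0.072 and Gpr34 at 0.14 ± 0.093. The median of the 10 was 0.28, against 0.80 over all tested genes. With the shorter index, or without Trem2-KO 9-month replicate 3, 4 genes were called in place of 7, with P2ry13, P2ry6 and Fcrls lost. The P2ry13 call was also lost without App-KI 9-month replicate 1 (adjusted p = 0.118) or 2 (0.0546) or Trem2-KO 9-month replicate 2 (0.0615). The P2ry6 call was also lost without App-KI 9-month replicate 1 (adjusted p = 0.0759) or 2 (0.108) or Trem2-KO 9-month replicate 1 (0.103), and without that last library Gpr34 was called (0.026).

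At 3 months none of the 10 was called on this scale, against 8.53% of tested genes called higher. The interaction was called for 4 genes, Tmem119 at 0.72 ± 0.102, Sall1 at 0.42 ± 0.144, P2ry12 at 0.31 ± 0.103 and Fcrls at 0.27 ± 0.104, against 69.6% of tested genes called with a positive one. The Fcrls interaction was lost with the shorter index (adjusted p = 0.0824) and without App-KI 3-month replicate 1 (0.0617), App-KI 9-month replicate 2 (0.0603), Trem2-KO 3-month replicate 2 (0.0603) or Trem2-KO 9-month replicate 3 (0.0899). That of Sall1 was lost without App-KI 3-month replicate 2 (adjusted p = 0.0592), and that of P2ry13 was called without Trem2-KO 3-month replicate 1 (0.0429).

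**Figure D3:**
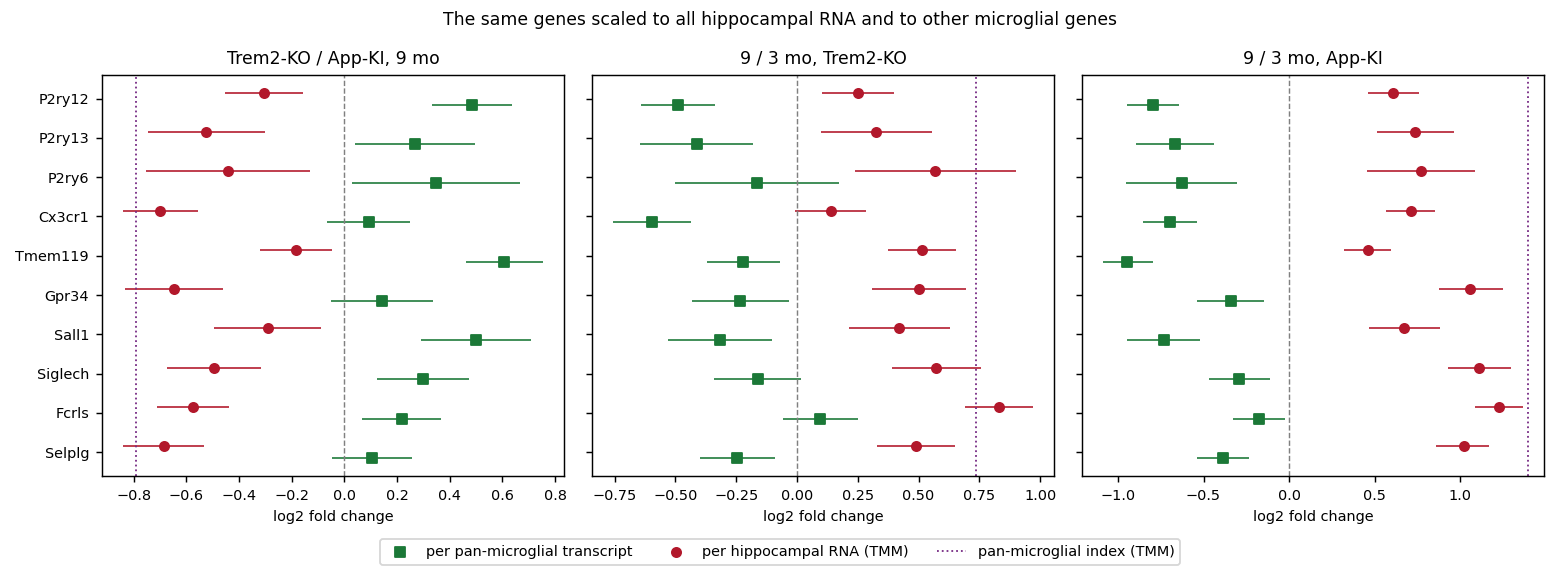
Log2 fold change of each gene with its 95% interval on both scales, for Trem2-KO over App-KI mice at 9 months and for 9 over 3 months in Trem2-KO and in App-KI mice. Red circles are scaled to all genes, green squares to the 22-gene pan-microglial index, and the dotted line marks the change of that index scaled to all genes. The circles lie between 0 and the dotted line except for Fcrls in Trem2-KO mice, where 0.83 exceeds the 0.735 of the index.

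The other genes of the resting state, a list of 22 such as Csf1r, Olfml3 and Vsir, moved in the same directions wherever they were called. At 9 months 9 of the 22 were called lower in Trem2-KO than in App-KI mice and none higher, with a median of -0.23. The immune checkpoint Vsir changed by -0.93 ± 0.081 and the growth factor receptor Csf1r by -0.76 ± 0.058. Cst3, the protease inhibitor cystatin C, and Serpine2, both also expressed by other brain cells, were not called, at 0.02 ± 0.149 and -0.19 ± 0.052. With age, 8 of the 22 rose in Trem2-KO mice and 12 in App-KI mice, at medians of 0.21 and 0.47. Csf1r rose by 0.48 ± 0.058 in Trem2-KO mice and by 1.17 ± 0.058 in App-KI mice. Its interaction was called, at -0.69 ± 0.082 (edgeR adjusted p = 0.000148), as was that of Vsir, at -0.74 ± 0.118. Csf1r is also in the pan-microglial index, of which 18 of 22 genes were called lower in Trem2-KO mice at 9 months.

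Of 20 genes of plaque-associated microglia, 11 were called lower in Trem2-KO than in App-KI mice at 9 months and none higher, with log2 fold changes from -4.31 to 0.13 over the 20. The integrin Itgax changed by -4.31 ± 0.292, the cystatin Cst7 by -4.05 ± 0.241 and the lectin Clec7a by -2.91 ± 0.211. Among the 10 homeostatic genes the lowest value was -0.70. With age 15 of the 20 rose in Trem2-KO mice and 18 in App-KI mice, and none was called lower. At 3 months none of the 20 was called between the genotypes.

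**Figure D4:**
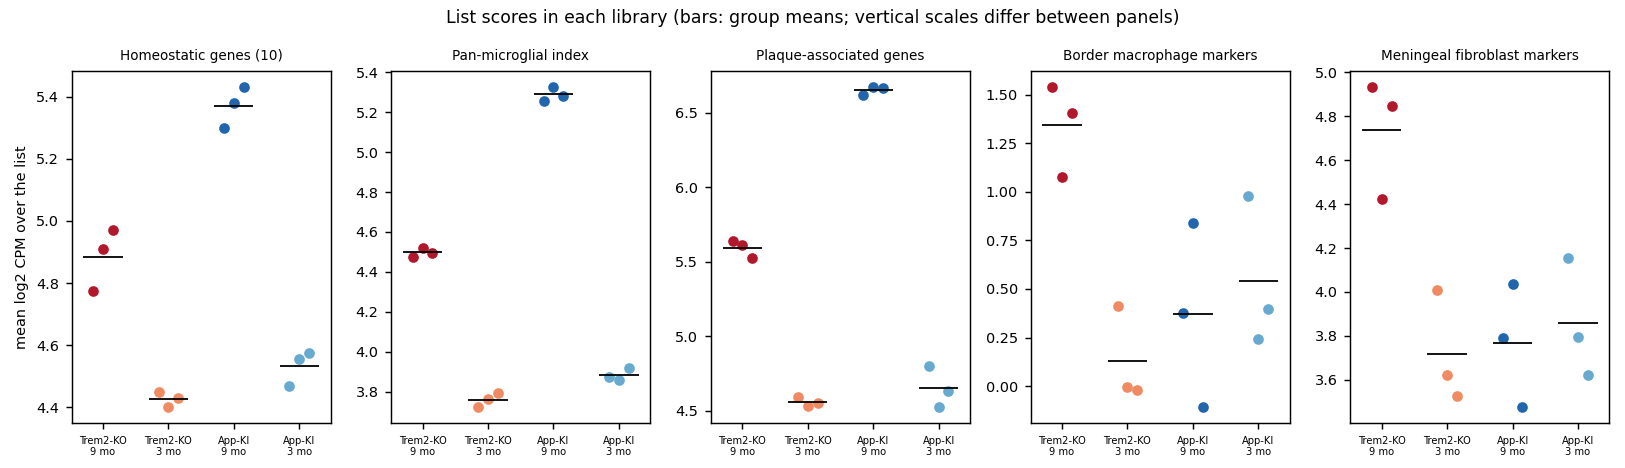
Mean log2 CPM of 5 gene lists in each library, with group means as bars and a vertical scale that differs between panels. The 10 homeostatic genes lie between 4.78 and 4.97 in Trem2-KO mice at 9 months, against 5.30 to 5.43 in App-KI mice of that age. The pan-microglial index lies between 4.47 and 4.52 in Trem2-KO mice at 9 months, against 5.26 to 5.33 in App-KI mice, while border macrophage and meningeal markers are highest in the Trem2-KO libraries of 9 months.

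Of 13 tested ligands and signalling partners of the receptors, 2 were called lower in Trem2-KO mice at 9 months: Tyrobp, the adaptor of Siglech and of Trem2, at -1.38 ± 0.134, and the phospholipase Plcb2, at -0.84 ± 0.189. Cx3cl1, which encodes fractalkine, the neuronal ligand of Cx3cr1, was not called between the genotypes at 9 months (-0.10 ± 0.055, edgeR adjusted p = 0.428). It was called lower at 9 than at 3 months in both genotypes, by a log2 fold change of -0.24 ± 0.055 in Trem2-KO mice and -0.22 ± 0.055 in App-KI mice, while its receptor rose in App-KI mice. With age 5 of the 13 rose in App-KI mice, led by Tyrobp (2.09 ± 0.140) and the kinase subunit Pik3cg (1.04 ± 0.148), and 2 in Trem2-KO mice, Tyrobp (1.06 ± 0.147) and Pik3cg (0.96 ± 0.154). Abhd12, a lipase that breaks down lysophosphatidylserine, was called in none of the 5 comparisons. The selectin genes Selp and Sele, whose products bind the Selplg protein, had too few counts to test, with at most 0.288 CPM in any library.

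Among 19 tested genes of nucleotide signalling other than the receptors above, 1 was called lower in Trem2-KO mice at 9 months, the ectonucleotidase Entpd1, which breaks down ATP and ADP (-0.41 ± 0.087, edgeR adjusted p = 0.0146). Entpd1 rose with age by 0.47 ± 0.090 in Trem2-KO mice and by 0.70 ± 0.088 in App-KI mice. The ion channels P2rx7 and P2rx4, which open on ATP, rose in App-KI mice, by 0.56 ± 0.103 and 0.46 ± 0.091, among 6 called genes of the list. In Trem2-KO mice 2 genes of the list rose, Entpd1 and the ADP receptor P2ry1 (0.66 ± 0.200).

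TGF-β signalling maintains the resting programme in microglia, and some of its genes differed in the same directions as the 10. Of 15 genes of this list, 3 were called lower in Trem2-KO mice at 9 months and none higher: Nrros, which presents latent TGF-β on microglia (-0.52 ± 0.112), and the receptors Tgfbr1 (-0.41 ± 0.069) and Tgfbr2 (-0.40 ± 0.100). With age 4 rose in each genotype. Tgfbr2 rose by 0.83 ± 0.104 in Trem2-KO mice and by 0.99 ± 0.102 in App-KI mice, and Tgfbr1 by 0.40 ± 0.071 and 0.75 ± 0.070. The list as a whole had a median of -0.07 between the genotypes at 9 months, near the 0.01 of all tested genes.

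Of 18 microglial transcription factors other than Sall1, 2 were lower in Trem2-KO than in App-KI mice at 9 months, among them Irf8 (-1.03 ± 0.112). Klf2, a factor also found in vessels, was called higher (0.48 ± 0.110). With age, Irf8 rose by 1.02 ± 0.121 in Trem2-KO mice and by 1.73 ± 0.116 in App-KI mice, against the 0.42 and 0.67 of Sall1. The abundant factors Mef2a and Egr1, which neurons also express, were not called in these comparisons.

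Likeness across the 12 libraries was measured for named genes with a mean log2 CPM of at least 1. Those whose level followed the mean of the 10 most closely were themselves microglial or myeloid. The highest Pearson r outside the 10 was that of Nckap1l, a haematopoietic actin regulator (0.992), followed by Csf1r (0.991), the Fc receptor Fcgr3 (0.989) and the signalling protein Plek (0.989). Laptm5 (0.986) was also among the 10 nearest of these, as were Anxa3, Irf5, C1qc and Ptpn6, with r from 0.984 to 0.985. The libraries share their groups, so no p is given. After each gene was centred on its group means, r was 0.862 for Csf1r and 0.799 for Nckap1l, and 0.149 for C1qc. Trem2, knocked out in 6 of the 12 mice, had an r of 0.809. Among the 10 genes themselves, the 45 pairs had r from 0.815 to 0.979 over all libraries and from -0.308 to 0.897 after centring on group means, with 40 of 45 positive.

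Some of the 10 genes share their place in the genome with others in GENCODE M21, and the strand setting of the counting is not given in the sources used here. P2ry12 and P2ry13 lie within the span of Med12l on the opposite strand, and 9 bases of P2ry12 exons, 0.353% of them, are shared with its exons. Gpr34 lies within Cask on the opposite strand with no shared exon base. Cx3cr1 shares 78 exon bases, 1.73% of its exons, with the antisense gene Gm33858. The span of Cx3cr1 also overlaps other genes with no shared exon base, among them Csrnp1, Gorasp1 and Xirp1 on the same strand. P2ry6 overlaps Gm44545 on the opposite strand, also with no shared exon base. Med12l and Cask were called in none of the 5 comparisons. Tmem119, Sall1, Siglech, Fcrls and Selplg overlap no other annotated gene.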

How the data were processed

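Total RNA from 12 hippocampi was made into libraries with the SMART-Seq mRNA LP kit, per the labels' protocols. The authors deposited whole-number read counts per gene, without normalisation, as the values show. Per the submitters' processing notes, the tools were STAR 2.7.10a and featureCounts 2.0.3, with R 4.2.0 and DESeq2 1.36.0, on the build GRCm39; no settings are stated. The sources used here give neither the annotation release nor the strand setting.

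Symbols and exon lengths came from GENCODE M21 on another build (GRCm38), which gave a symbol to 52073 of 56980 identifiers and was used for overlaps between genes but for no printed coordinates. In R 4.3.3, edgeR 4.0.16 was run with filterByExpr (minimum count 10, minimum total 15), TMM scaling, 1 term per group over 12 libraries, 8 residual degrees of freedom, the robust quasi-likelihood F-test and Benjamini-Hochberg adjustment over 19152 genes. Standard errors were derived from the F statistic and the change before moderation. A further fit scaled each library to the geometric mean of its counts plus 1 over the 22 pan-microglial genes. Limits on counts of 0 cover counting error alone, because no molecular identifiers were used and reads may be copies of 1 molecule. Scripts were tested on simulated data.

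The labels give mouse identifiers and no shared replicate numbers, so replicates are numbered in accession order and unpaired. The 10 genes and all gene lists were chosen with earlier results of these data known. From each list the text names the called genes of lowest p (up to 3) and up to 2 abundant uncalled ones, beside genes needed for the account of the 10, chosen after their values were seen. Some genes that these rules pick are not reported here. Alternatives were DESeq2 size factors in edgeR, no filter, the DESeq2 1.42.0 Wald test, the compared groups alone, and each library left out in turn. A shorter index of 12 genes, without complement, cathepsin or Fc-adaptor genes, was another.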

Additional observations from a re-analysis of the deposited data

Results flagged for a closer look

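A difference between the genotypes in the change with age was called for 2 of the 10 genes, by the interaction term of edgeR's quasi-likelihood test. Of all tested genes, 0.209% were called with a negative interaction. For Cx3cr1 the interaction was -0.572 on the log2 scale, with a change of 0.14 in Trem2-KO mice and 0.71 in App-KI mice. For Selplg it was -0.528, with a change of 0.49 in Trem2-KO mice and 1.02 in App-KI mice. Per pan-microglial transcript neither was called, at 0.10 ± 0.108 for Cx3cr1 and 0.14 ± 0.104 for Selplg (SE; edgeR adjusted p = 0.425 and 0.224). On the scale of hippocampal RNA, the Cx3cr1 call was made in 12 of 12 fits with a library left out, and the Selplg call in 5. Gpr34 and Siglech had interactions of similar size on that scale, -0.561 and -0.542, that were not called. Groups of 3 libraries were not tested for an outlying sample.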

How the results depend on the processing

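Of the alternatives for single genes and comparisons, 1356 left the direction and the side of the threshold as reported, 55 lost a call, 16 gained one and 13 turned the sign of a change that was not called. With a library left out in turn, the number of the 10 genes called was 5 to 7 for genotype at 9 months, 5 to 9 for age in Trem2-KO mice, 10 to 10 for age in App-KI mice and 1 to 3 for the interaction. The interaction was called for 5 genes without the filter on low counts and for 5 by DESeq2, against 2 in the main test. The shares of all genes called in those fits are not reported here. Per pan-microglial transcript, leaving out a library gave 4 to 7 genes for genotype at 9 months, and the shorter index gave 4 there and 4 for age in Trem2-KO mice; why was not tested. All sign changes concerned genotype at 3 months. With a library left out, the log2 fold change ran from -0.0118 to 0.125 for Siglech and from -0.127 to 0.0511 for Sall1. Per pan-microglial transcript it ran from -0.0982 to 0.0754 for P2ry13, -0.183 to 0.00276 for P2ry6, -0.0431 to 0.0169 for Cx3cr1, -0.0255 to 0.0958 for Gpr34 and -0.0918 to 0.009 for Selplg, and was -0.00502 for P2ry13 with the shorter index. No paired analysis was possible because the labels give no replicate numbers shared between groups. With 3 libraries a group, genotype differences at 3 months are bounded only by their 95% intervals, which for P2ry6 ran from -0.57 to 0.10 on the log2 scale.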
